A study of Rattus norvegicus with 4 samples.

Results

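The replication licensing genes are a set of 10 genes of the 32883 in the count table, chosen by name, as members of one pathway, with earlier results of these data known: *Mcm2*, *Mcm3*, *Mcm4*, *Mcm5*, *Mcm6*, *Mcm7*, *Mcm10*, *Cdt1*, *Gmnn* and *Pcna*. All 10 had at least 1 CPM, the count scaled to the library total, in every library and were among the 13843 genes tested. RNA-seq was performed on whole carotid bodies (CBs) of Sprague Dawley rats, with 2 libraries from neonates (day 5) and 2 from adults (day 21). Neonate and adult are the study's names for these ages, and the labels name no treatment or engineered allele. By the sample labels, each library held RNA pooled from 6 pups or 3 day 21 rats, so the spread between libraries is one between pools.

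Licensing is the step in which a cell prepares its origins of replication during G1. The origin recognition complex (ORC), with Cdc6, marks the origin, and Cdt1 brings the ring of Mcm2 to Mcm7 onto the DNA as an inactive helicase. Geminin, encoded by *Gmnn*, binds Cdt1 from S phase until mitosis and so keeps an origin from being licensed again within the same cycle. At the start of S phase, kinases, Cdc45, GINS and Mcm10 turn the ring into a working helicase, and the clamp PCNA then holds the polymerases on the template. Transcripts of many of these genes are under E2F control and fall when cells leave the cycle. The CB holds oxygen-sensing glomus cells beside glia, endothelium and connective tissue, and in bulk RNA fewer cycling cells and less RNA per cycling cell cannot be told apart.

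All 10 genes were higher in neonates. In each of them both neonatal libraries lay above both adult libraries, a pattern found in 27.9% of all genes tested, and the log2 fold changes (neonate over adult) ran from 0.80 for *Mcm7* to 2.22 for *Mcm10*, with a median of 1.50 against -0.0029 over all genes tested. The 10 genes passed an adjusted p of 0.05 in edgeR's quasi-likelihood test, as did 31.2% of all genes in this direction, and the adjusted p ranged from 2.9e-06 to 7.0e-05. A fold change of at least 2 beside that p was met by 9 of the 10 genes, against 7.68% of all genes tested. The exception was *Mcm7*. This threshold is the one in the study's methods, while its results name a t-test p-value for the differentially expressed genes. Scaled to library size alone, without TMM normalization, all 10 still passed the adjusted p but only 5 kept a 2-fold difference (*Mcm3*, *Mcm5*, *Mcm10*, *Cdt1* and *Gmnn*).

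Levels are CPM of the library total, which ranged from 36286178 to 39476111 counts. Mitochondrial transcripts made 18.7% and 15.6% of that total in the neonatal libraries and 9.06% and 9.08% in the adult libraries. Their part in the difference between scalings was not tested. Fold changes are after TMM normalization, whose factors were 0.902 and 0.935 for the neonatal libraries and 1.08 and 1.10 for the adult libraries, so a fold is larger than the ratio of the printed CPM, and it is printed as log2 ± standard error. Between both scalings the median over all genes tested moved from -0.0029 to -0.25. Genes called at 2-fold were then 704 higher and 2550 lower in neonates, in place of 1063 higher and 1822 lower. The lowest count of any of the 10 genes was 136, in *Mcm10*, far above 3 counts, which served as the floor of detection for counting error. Libraries of one age were not copies of each other, since their counts differed beyond sampling noise (chi-square over degrees of freedom 29.0 for neonates and 13.3 for adults), and each library was taken as 1 replicate.

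The neonatal libraries differed from each other in tissue that is not CB. *Pth*, which encodes parathyroid hormone, stood at 1595 CPM in the first neonatal library and at 194 CPM in the second, with 0 counts in both adult libraries. Summed over the 3 parathyroid markers (*Pth*, *Gcm2*, *Casr*), neonate replicate 1 was 8.18-fold above neonate replicate 2. For the licensing genes, neonate replicate 1 over neonate replicate 2 lay between 0.874 (*Mcm10*) and 1.25 (*Mcm2*), and adult replicate 1 over adult replicate 2 between 0.871 and 1.29. *Pth* had counts in both neonatal libraries and in neither adult library, so parathyroid tissue cannot be told apart from age. Its part was not tested, and with either neonatal library left out the other still held *Pth*. All 10 genes passed the adjusted p, and 9 of 10 were called, both without neonate replicate 1 and without neonate replicate 2.

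The helicase subunits form a ring in which each of the 6 proteins occupies one place. *Mcm5*, which with Mcm2 forms the gate through which DNA enters the ring, changed the most of them. It had 58.3 and 48.8 CPM in the neonatal libraries and 16.8 and 15.8 CPM in the adult libraries (log2 fold change 1.97 ± 0.12, adjusted p = 5.3e-06), or 3.91-fold. *Mcm3*, the neighbour of Mcm5 in the ring, had 59.4 and 55.7 CPM in neonates and 19.6 CPM in both adult libraries. On the log2 scale the difference was 1.80 ± 0.097 (adjusted p = 2.9e-06). For both genes the spread within an age was small beside the gap between ages.

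*Mcm2*, which also carries histones at the fork, had 68.0 and 54.4 CPM in neonates and 32.5 and 30.9 CPM in adults. The neonatal libraries of *Mcm2* were the most unequal of the 10 genes, and its log2 fold change of 1.20 ± 0.13 (adjusted p = 7.0e-05) was 1.01 without neonate replicate 1 and 1.39 without neonate replicate 2. *Mcm6* had 70.1 and 67.5 CPM against 36.5 and 34.6 CPM (log2 fold change 1.20 ± 0.095, adjusted p = 1.5e-05). *Mcm4*, which with Mcm6 and Mcm7 forms a core with helicase activity of its own, had 79.5 and 75.9 CPM against 40.5 and 46.5 CPM (log2 fold change 1.08 ± 0.099, adjusted p = 3.1e-05). Its adult libraries were the more unequal pair, and without adult replicate 1 the log2 fold change was 0.97, under the 2-fold threshold. *Mcm4* alone of the 10 genes had fractional estimated counts, in 4 of 4 libraries, so some of its reads also fit another sequence.

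*Mcm7* changed the least, with 87.3 and 89.2 CPM in neonates and 58.4 and 61.5 CPM in adults (log2 fold change 0.80 ± 0.081, adjusted p = 4.9e-05). The 95% interval of that fold change, from 0.62 to 0.99 on the log2 scale, ended just below 2-fold, while those of *Mcm3* (1.58 to 2.02) and *Mcm5* (1.69 to 2.24) lay wholly above the interval of *Mcm7*. The intervals of *Mcm2*, *Mcm4* and *Mcm6* overlapped each other and reached below 2-fold. In order of fold change, *Mcm5* and *Mcm3* thus stood at one end, *Mcm2*, *Mcm6* and *Mcm4* lay within each other's errors, and *Mcm7* came last.

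**Figure D1:**
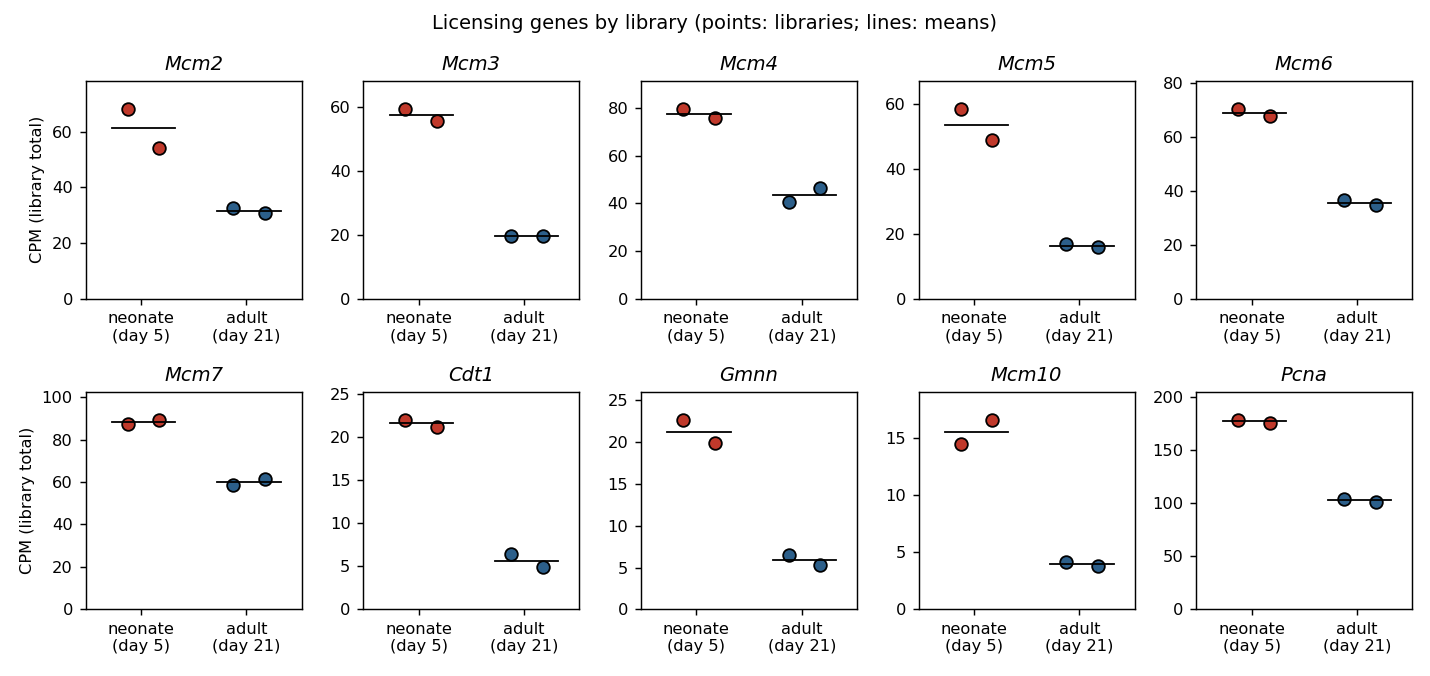
Level of each licensing gene in CPM of the library total (vertical axes, each from 0) in the 2 neonatal (red, day 5) and 2 adult (blue, day 21) libraries, with lines at the mean of an age. In all 10 genes the neonatal points lie above the adult points, from 14.4 CPM and more against 4.10 CPM and less in *Mcm10* to 175 CPM and more against 104 CPM and less in *Pcna*.

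The loader and its inhibitor changed by similar amounts. *Cdt1* had 22.0 and 21.2 CPM in neonates and 6.38 and 4.93 CPM in adults (log2 fold change 2.18 ± 0.17, adjusted p = 1.4e-05), or 4.52-fold. *Gmnn* had 22.6 and 19.9 CPM in neonates and 6.54 and 5.35 CPM in adults (log2 fold change 2.08 ± 0.17, adjusted p = 1.6e-05), or 4.24-fold. The 95% intervals of both folds, 1.80 to 2.56 and 1.70 to 2.46, largely coincided. The relatives of geminin that act in multiciliated cells were not tested: *Mcidas* had no counts in any library and *Gmnc* had 4 counts in adult replicate 1 only.

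*Mcm10*, which is not a ring subunit but joins the helicase when it is activated, had the highest fold change of the 10 genes, although within the standard errors of *Cdt1* and *Gmnn* and below *Cdt1* without neonate replicate 2 (2.17 against 2.24) or without adult replicate 1 (2.27 against 2.36). It had 14.4 and 16.5 CPM in neonates and 4.10 and 3.75 CPM in adults (log2 fold change 2.22 ± 0.18, adjusted p = 1.8e-05), or 4.66-fold. *Pcna*, which also serves in DNA repair, had 178 and 175 CPM in neonates and 104 and 101 CPM in adults (log2 fold change 1.03 ± 0.075, adjusted p = 1.1e-05). *Pcna* had the smallest standard error of the set and lay close to the 2-fold threshold, with a log2 fold change of 0.97 without adult replicate 2 and 0.79 by library size alone.

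**Figure D2:**
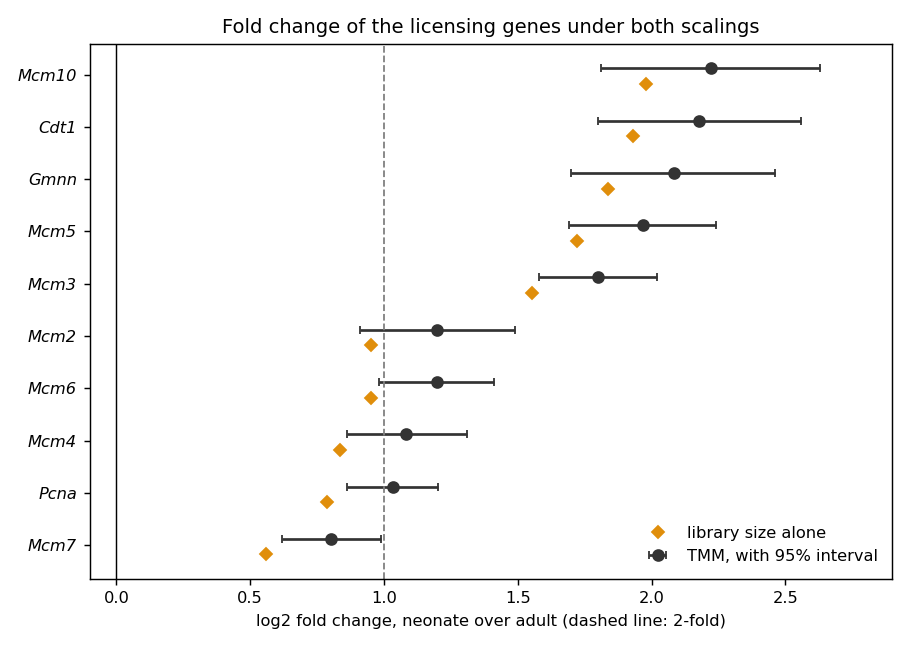
Log2 fold change of each licensing gene, neonate over adult (horizontal axis), after TMM normalization with its 95% interval (black) and by library size alone (orange diamonds, no interval drawn). The dashed line marks 2-fold: *Mcm10*, *Cdt1*, *Gmnn*, *Mcm5* and *Mcm3* lie beyond it under both scalings, while *Mcm2*, *Mcm6*, *Mcm4* and *Pcna* cross it between scalings and *Mcm7* stays below it.

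Shares and ratios of counts within a library do not move with the scaling of libraries, and they were used to compare the genes with each other. An exact permutation test over 4 libraries cannot give a two-sided p below 0.333, so no single ratio can reach 0.05, and the values of the libraries are given instead for 6 shares and 10 ratios, of which the ratios of *Gmnn* and *Cdc6* to the helicase sum, of *Mcm5* to *Mcm7* and of *Mcm3* to *Mcm5* were chosen after the values were seen. Of the summed *Mcm2* to *Mcm7* counts, *Mcm7* took 20.7% and 22.8% in neonates and 28.6% and 29.4% in adults. *Mcm5* took 13.8% and 12.5% in neonates but 8.20% and 7.55% in adults, and *Mcm3* took 14.1% and 14.2% against 9.59% and 9.39%. The ages did not overlap in these 3 subunits (exact permutation p = 0.333 for each). *Mcm4* took 18.8% and 19.4% against 19.8% and 22.3%, also without overlap but by less. The shares of *Mcm2* (16.1% and 13.9% against 15.9% and 14.8%) and *Mcm6* (16.6% and 17.3% against 17.9% and 16.6%) overlapped between ages. The ratio of *Mcm5* to *Mcm7* counts was 0.667 and 0.548 in neonates and 0.287 and 0.257 in adults, a 2.23-fold difference. A share compares ages for one gene and says nothing of which subunit had more molecules, since counts also depend on transcript length.

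**Figure D3:**
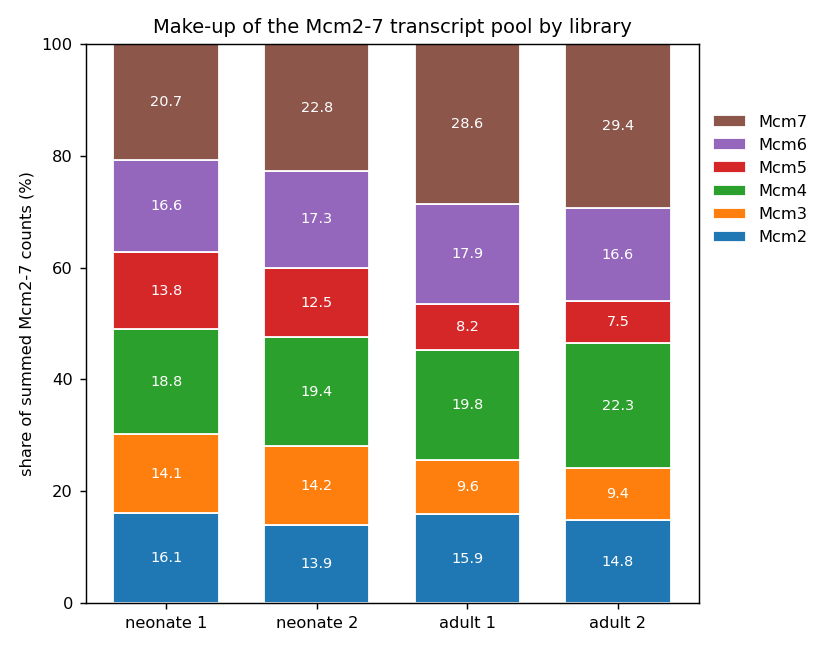
Share of each subunit in the summed *Mcm2* to *Mcm7* counts (vertical axis, percent) in the 2 neonatal and 2 adult libraries, with the share printed in each segment. *Mcm7* takes 20.7% and 22.8% in neonates and 28.6% and 29.4% in adults, while the segments of *Mcm3* and *Mcm5* are smaller in adults.

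Against the summed helicase subunits, *Cdt1*, *Gmnn* and *Mcm10* were higher in neonates. The ratio of *Cdt1* to *Mcm2*-to-*Mcm7* counts was 0.0520 and 0.0542 in neonates and 0.0312 and 0.0236 in adults, a 1.96-fold difference. For *Gmnn* the ratio was 0.0535 and 0.0507 against 0.0320 and 0.0256, a 1.82-fold difference, and for *Mcm10* it was 0.0342 and 0.0422 against 0.0201 and 0.0179, a 2-fold difference. None of these 3 ratios overlapped between ages (exact permutation p = 0.333 for each). Set against each other, inhibitor and loader overlapped: *Gmnn* to *Cdt1* was 1.03 and 0.936 in neonates and 1.02 and 1.08 in adults (exact permutation p = 0.667). *Pcna* to the helicase sum went the other way by a small amount, with 0.421 and 0.448 in neonates and 0.509 and 0.483 in adults, a log2 difference of -0.19. The helicase sum itself was 0.456 and 0.467 of the summed counts of 17 mitosis genes in neonates and 0.797 and 0.803 in adults, so relative to the mitosis genes the helicase stood higher in adults (exact permutation p = 0.333). The ratio of *Mcm3* to *Mcm5* was 1.02 and 1.14 in neonates and 1.17 and 1.24 in adults, and that of *Cdc6* to the helicase sum was 0.0282 and 0.0243 against 0.0131 and 0.0112.

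**Figure D4:**
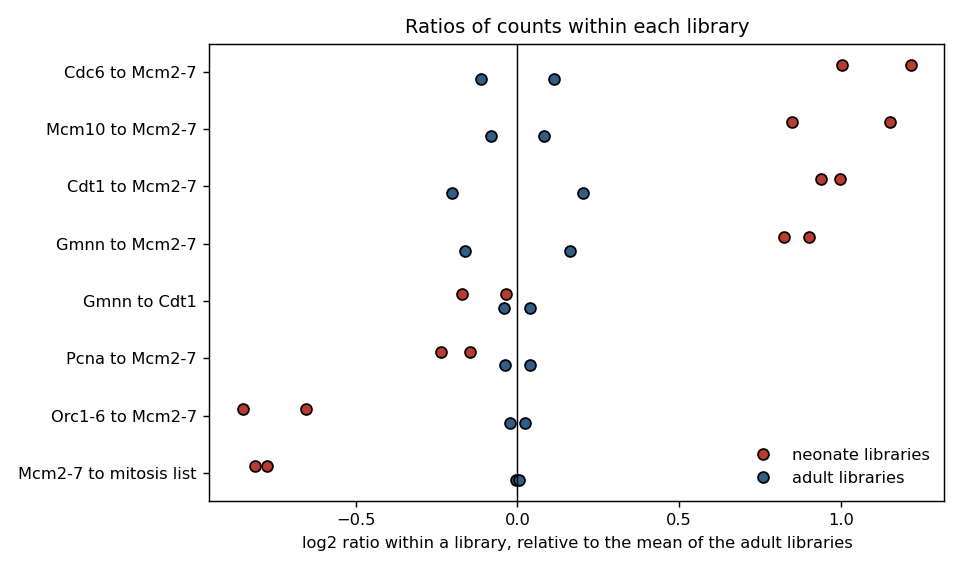
Ratios of counts within each library, on a log2 scale relative to the mean of the adult libraries (horizontal axis), for the 2 neonatal (red) and 2 adult (blue) libraries. *Cdc6*, *Mcm10*, *Cdt1* and *Gmnn* relative to *Mcm2* to *Mcm7* are higher in neonates, *Gmnn* to *Cdt1* overlaps between ages, and *Orc1* to *Orc6* relative to *Mcm2* to *Mcm7* and *Mcm2* to *Mcm7* relative to the mitosis list are lower in neonates.

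Since the 10 genes moved together, the bases before their start sites were examined for the letters that E2F factors recognise, in the promoter windows of RefSeq (build GRCr8, not the build to which the reads were mapped). A window holds 250 bases before and 50 bases after the start. Of the 10 genes, 9 had a window, and *Mcm4* had no entry. The letters TTTCCCGC, TTTCGCGC, TTTGCCGC or TTTGGCGC, on either strand, were present in 7 of the 9 windows, against 2.14% of the 33469 windows of all genes. Among the 21851 windows of protein-coding genes the share was 2.74%. Overlapping matches were counted apart, as in *Mcm2*, where the same 12 bases read TTTCGCGC on both strands. These windows were searched because the genes had moved together, and a match is a description of letters, not of binding.

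Shown first are the windows of the subunits at the ends of the fold order, *Mcm5* and *Mcm7*, with *Mcm6* between them, each as the 250 bases before the start, 5′ to 3′ on the gene's strand, with matches to the E2F letters in capitals. They lie at chr19:13488563-13488812 on the plus strand (*Mcm5*), chr13:42404353-42404602 on the minus strand (*Mcm6*) and chr12:22163179-22163428 on the minus strand (*Mcm7*).
Mcm5: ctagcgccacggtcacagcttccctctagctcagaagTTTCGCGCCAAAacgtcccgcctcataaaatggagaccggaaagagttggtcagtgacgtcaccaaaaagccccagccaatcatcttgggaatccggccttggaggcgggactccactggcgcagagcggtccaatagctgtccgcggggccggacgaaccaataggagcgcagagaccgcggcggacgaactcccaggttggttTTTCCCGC
Mcm6: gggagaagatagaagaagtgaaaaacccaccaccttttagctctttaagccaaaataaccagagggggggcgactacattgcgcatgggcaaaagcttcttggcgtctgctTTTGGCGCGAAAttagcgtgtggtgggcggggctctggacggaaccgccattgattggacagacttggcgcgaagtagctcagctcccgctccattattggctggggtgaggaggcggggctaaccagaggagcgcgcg
Mcm7: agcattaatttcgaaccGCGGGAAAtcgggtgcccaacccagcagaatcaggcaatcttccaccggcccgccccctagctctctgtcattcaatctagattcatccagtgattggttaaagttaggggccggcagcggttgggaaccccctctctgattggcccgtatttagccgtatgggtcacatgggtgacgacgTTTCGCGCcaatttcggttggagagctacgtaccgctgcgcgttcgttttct

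*Mcm5* held 3 matches, beginning 213, 209 and 8 bases before the start, *Mcm6* held 2 that overlap, beginning 139 and 135 bases before it, and *Mcm7* held 2, beginning 233 and 52 bases before it. The letters thus stand in the windows of the subunits with the largest and the smallest fold change. Printed next are the 120 bases before the start of *Mcm2*, whose matches end next to the start, and of *Mcm10*, whose window held none. They lie at chr4:122918095-122918214 on the minus strand (*Mcm2*) and chr17:78175267-78175386 on the plus strand (*Mcm10*).
Mcm2: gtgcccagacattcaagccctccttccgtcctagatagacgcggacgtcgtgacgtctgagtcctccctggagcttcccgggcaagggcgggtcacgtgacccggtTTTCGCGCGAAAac
Mcm10: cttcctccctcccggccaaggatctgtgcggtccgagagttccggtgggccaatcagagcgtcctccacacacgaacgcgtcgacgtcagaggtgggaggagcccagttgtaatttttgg

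In *Cdt1* and *Gmnn* all matches lay in the 50 bases after the start, 7 and 32 bases from it in *Cdt1* and 38 bases from it in *Gmnn*, and in *Mcm3* one match spanned the start and another began 13 bases after it. *Pcna*, like *Mcm10*, held no match, which says only that these letters are not in this window. The CCAAT box, on either strand, was present in 7 of the 9 windows against 37.5% of all windows, and the letters TTTGAA or TTCGAA of the CHR element of late cell cycle genes in 2 of the 9 (*Mcm2* and *Mcm7*) against 19.7%.

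Among the partners that place the helicase on DNA, the genes did not move as a block. Counts of this list and of those that follow stand against 7.68% of all genes tested called higher in neonates and 13.2% called lower. *Cdc6*, the loading ATPase, had 11.9 and 9.50 CPM in neonates and 2.67 and 2.34 CPM in adults (log2 fold change 2.34 ± 0.24, adjusted p = 5.4e-05), close to *Cdt1* and *Gmnn*. Of the ORC subunits, *Orc1*, the one whose level follows the cell cycle, had 2.81 and 2.52 CPM in neonates and 1.16 and 0.937 CPM in adults (log2 fold change 1.59 ± 0.35, adjusted p = 0.0036). *Orc6* was called as well, at a log2 fold change of 1.14 (adjusted p = 0.00078), and *Orc2* passed the adjusted p below 2-fold, at 0.75 (adjusted p = 8.0e-05). *Orc3* was lower in neonates, at -0.34 (adjusted p = 0.029). *Orc4* (0.23, adjusted p = 0.14) and *Orc5* (0.040, adjusted p = 0.78) did not pass. Of these 7 genes, 3 were called higher and 0 lower, and the summed *Orc1* to *Orc6* counts were 0.471 and 0.539 of the helicase sum in neonates and 0.836 and 0.862 in adults.

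The MCM proteins outside the ring also parted. *Mcm8*, which acts in recombination repair with Mcm9, was called higher in neonates at a log2 fold change of 1.35 (adjusted p = 0.00041), with 11.8 and 10.3 CPM against 5.35 and 4.88 CPM. *Mcm9* was lower in neonates, at -0.36 (adjusted p = 0.043), with 13.9 and 12.3 CPM against 19.4 and 20.4 CPM. *Mcmbp*, a binding partner of the ring, was at 0.32 (adjusted p = 0.010), and *Mcmdc2* at 0.035 (adjusted p = 0.90) did not pass.

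Genes that fire licensed origins were mostly called higher in neonates as well. Of 12 tested, 10 were called higher in neonates and 0 lower, with a median log2 fold change of 1.57. *Dbf4*, the activator of the kinase Cdc7, had the highest, 2.31 (standard error 0.17, adjusted p = 1.2e-05), with fractional counts, and *Cdc45*, a part of the working helicase, had 20.8 and 20.9 CPM against 6.06 and 4.60 CPM. The GINS complex is the other part, and 3 of its 4 genes were called, the exception being *Gins3* (0.34, adjusted p = 0.21). *Topbp1*, which also serves the checkpoint, had the lowest log2 fold change, -0.25 (adjusted p = 0.20), and did not pass.

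Genes that control the turnover of licensing factors did not all move together. *Dtl*, the adaptor that directs Cdt1 to the Cul4 ligase on PCNA-bound chromatin, was called higher at 1.89 (adjusted p = 4.9e-05), as were *Skp2* (1.28, adjusted p = 6.5e-05) and *Fbxo5* (1.60, adjusted p = 1.4e-05), the inhibitor of the ligase that degrades geminin. The ligase components did not follow: *Cul4a* was at -0.073 (adjusted p = 0.43), *Cul4b* at -0.011 (adjusted p = 0.91), and *Ddb1* was lower in neonates at -0.55 (adjusted p = 0.00052). *Fzr1*, the ligase activator of G1, was at 0.10 (adjusted p = 0.43). Of 8 tested, 3 were called higher and 0 lower.

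At the fork itself, 3 of 11 polymerase and primase genes tested were called higher, 5 without neonate replicate 2, and 0 lower. *Pole*, the catalytic subunit of the leading-strand polymerase, was highest at 2.03 (adjusted p = 6.2e-06) and *Pold3* lowest at -0.15 (adjusted p = 0.20), while *Pole3*, with 2 counts in neonate replicate 1 and none elsewhere, was not tested. Of 8 genes of the clamp loader and Okazaki maturation, 5 were called higher and 0 lower, from *Chtf18* at 1.84 (adjusted p = 4.7e-05) down to *Rfc1*, the large loader subunit, which was lower in neonates at -0.30 (adjusted p = 0.014). Of 7 fork protection and RPA genes 4 were called higher. All 7 passed the adjusted p, against 31.2% of all genes tested in this direction, from *Rpa1* at 0.37 (adjusted p = 0.0030) to *Timeless* at 1.88 (adjusted p = 9.8e-06). Of 6 genes of nucleotide supply 3 were called higher, with *Tk1* at 1.95 (adjusted p = 2.7e-05) and *Tyms* at 0.038 (adjusted p = 0.83) at the ends. *Dna2* was not analysed here.

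The regulators of the G1/S step held the one gene called lower in neonates among these lists. *Rb1*, which restrains E2F, had 14.1 and 14.4 CPM in neonates and 40.4 and 43.9 CPM in adults (log2 fold change -1.32 ± 0.099, adjusted p = 1.2e-05), a direction and size met by 13.2% of all genes tested. *Rbl2*, its relative of resting cells, was also lower at -0.37 (adjusted p = 0.0051), as were 31.1% of all genes tested by adjusted p alone. Of 15 tested, 5 were called higher: the cyclins *Ccne1* (1.74, adjusted p = 0.00010) and *Ccne2* (1.33, adjusted p = 4.0e-05), their kinase *Cdk2* (1.03, adjusted p = 8.1e-05), and the late repressors *E2f7* (1.40, adjusted p = 0.0056) and *E2f8* (1.98, adjusted p = 0.0022). *E2f2* to *E2f6* did not pass, and *E2f1* was not analysed here.

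Over these 10 replication lists without mitosis, 37 of 78 genes tested were called higher in neonates, or 47.4% against 7.68% of all genes tested, and 1 lower against 13.2%, with a median log2 fold change of 0.95. In the mitosis list, all 17 genes tested were called higher, with a median of 1.94, from *Kif11* at 1.37 (adjusted p = 1.2e-05) to *Birc5* at 2.65 (adjusted p = 7.0e-06). *Mki67*, the usual marker of cycling cells, had 181 and 158 CPM in neonates and 38.4 and 40.6 CPM in adults. *Ccnb2* was not analysed here. The helicase subunits had a median of 1.20, and of them *Mcm3* and *Mcm5* lay within the range of the mitosis genes, as did *Mcm10*, *Cdt1* and *Gmnn*.

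**Figure D5:**
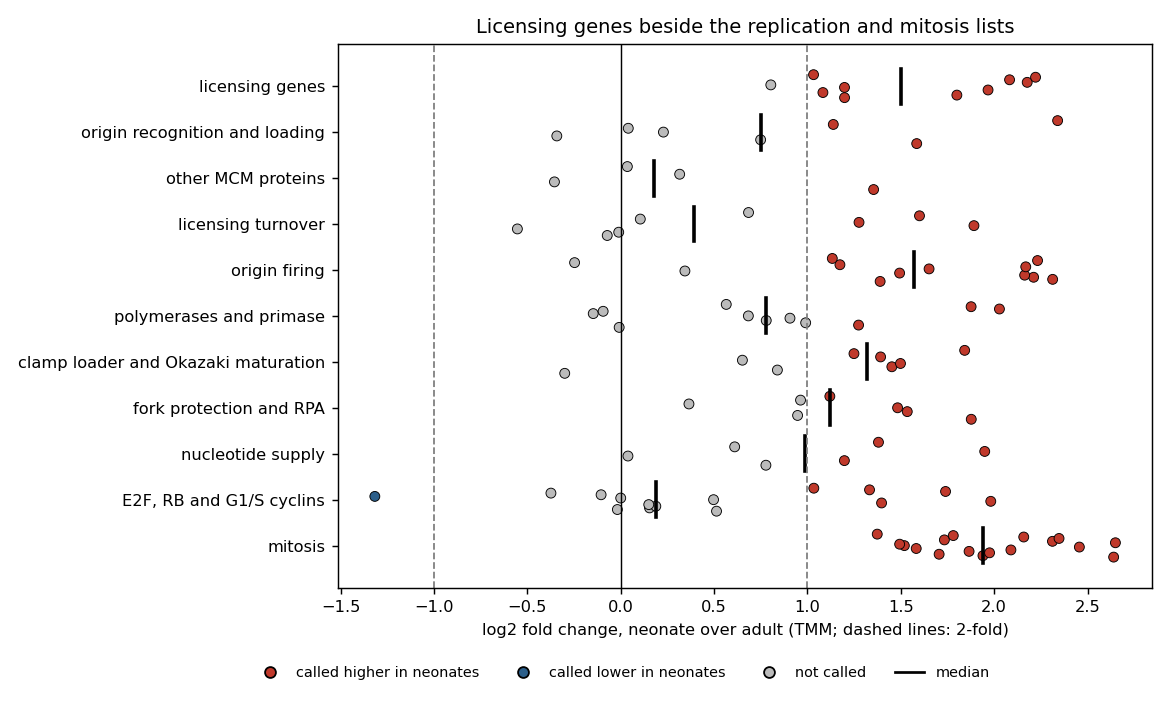
Log2 fold change of every gene tested, neonate over adult (horizontal axis, TMM), by list, with genes called higher (red), called lower (blue) or not called (grey) and a black line at each median. The median is 1.50 for the licensing genes and 1.94 for mitosis, and *Rb1*, at -1.32, is the gene called lower in neonates.

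By a measure of likeness over the 4 libraries, the 10 other genes closest to the mean profile of the licensing genes included *Slc7a3*, *Snrpd1*, *Arhgap11a*, *Tgfbr3l*, AABR07035787.1, *Dctpp1*, *Fbxo5*, *Kntc1* and *Lmnb1*. The measure was the Euclidean distance between log2 CPM profiles, each centred on its own mean, and it ran from 0.0324 to 0.0863 for the 10 genes and from 0.251 to 0.760 for the licensing genes themselves. With 2 libraries an age, such a profile holds little more than the size of the age difference, and the genes nearest to it had log2 fold changes from 1.48 to 1.63.

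Markers of cell types that moved with age are given beside these results, and their part in them was not tested. Their counts stand against 7.68% of all genes called higher in neonates and 13.2% called lower, and 1 marker of a list of 5 to 9 is near those shares. All 7 erythroid markers in the table were called higher in neonates, with a summed level of 11667 and 6871 CPM in neonates and 3041 and 2692 CPM in adults, most of it globin RNA. All 6 sympathetic neuron markers passed the adjusted p toward neonates, 5 of them called, with 1136 and 947 CPM against 657 and 523 CPM, and 2 of the 3 parathyroid markers were called. Toward adults, 3 of 6 macrophage markers and 3 of 4 adipocyte markers tested were called. Of the 9 thymocyte and T cell markers, 2 were tested and 1 (*Cd4*) was called lower in neonates. The other, *Lck*, did not pass (log2 fold change -0.01, adjusted p = 0.98). The summed level was 6.33 and 6.18 CPM in neonates and 13.8 and 13.6 CPM in adults. Of that sum *Cd4* made 0.912 and 0.857 CPM in neonates and 7.57 and 7.69 CPM in adults. *Rag1*, *Dntt* and *Ptcra*, which mark immature thymocytes, stayed at or below 0.597 CPM. *Rag1*, which was not tested, had 0.152 and 0.597 CPM in neonates and 0.0265 and 0.0551 CPM in adults. Glomus cell markers were present at both ages (*Th* at 917 and 781 CPM in neonates and 1517 and 1242 CPM in adults), and of 9 tested 1 was called higher and 2 lower. Of 7 endothelial markers 0 were called, and of 5 fibroblast markers 1 was called lower. Of 8 glial markers 1 was called higher and 1 lower, with 1027 and 2094 CPM in neonates, and of 6 smooth muscle and pericyte markers 1 was called lower. Of the skeletal muscle markers 1 of 4 tested was called lower, *Myh8* being at 0 throughout, and of the thyroid markers 1 was tested and not called.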

How the data were processed

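RNA of CBs pooled by age was sequenced in 4 libraries, 2 neonatal and 2 adult, grouped by the sample titles. The authors trimmed the reads, mapped them with STAR to the Rnor_6.0 transcriptome and quantified them with Salmon (1.5.2 in the submitters' processing notes). They deposited estimated counts per gene, not normalized and not filtered. The paper gives other pool sizes, replicate numbers and RNA input than the labels, and fewer reads per sample than the library totals used here as depth.

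Estimated counts were rounded. Genes annotated as other than protein-coding in RefSeq (636) were removed by symbol, while 13665 genes without a type found there were kept. Of the genes left, those reaching 1 CPM in 2 or more libraries were retained. The genes tested are thus not all known to be protein-coding. Ages were compared in R 4.3.3 with edgeR 4.0.16 (TMM, quasi-likelihood test, Benjamini-Hochberg adjustment over all 13843 genes, no covariate), with standard errors from the fold change and its F. Genes were called at an adjusted p under 0.05 and at least 2-fold. The smallest two-sided p for a single ratio is 0.333 (exact permutation). In simulated data of 13843 genes, all planted changes had the same size, past the 2-fold threshold, and every gene the same dispersion. There, 194 of 200 changed genes were called with the right sign and 0 unchanged ones. Smaller changes, such as that of *Mcm7*, were not simulated. The real libraries gave more calls than that, 1063 higher and 1822 lower in neonates. How often calls in the real libraries are wrong was not tested.

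The 10 genes and all lists were chosen with earlier results of these data known. Named are all 10 genes, ORC and *Cdc6*, from each other list its highest and lowest gene, genes against the list's direction and genes not tested, and the genes of the 10 nearest profiles, except that some items are not reported here. Further genes, such as *Cdc45*, *Mki67*, *Mcmbp* and *Dtl*, were named after their values were seen. P-values measure the spread between pools, which may be partly technical. The floor covers counting error only. Alternatives were DESeq2 1.42.0, limma-voom 3.58.1, other scalings and filters, a replicate block and each library left out.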

Additional observations from a re-analysis of the deposited data

How the results depend on the processing

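By library size alone 5 of the 10 licensing genes were called in place of 9, with *Mcm2* (0.95), *Mcm4* (0.84), *Mcm6* (0.95) and *Pcna* (0.79) under 2-fold. The median over all genes tested moved to -0.25 as well. With a mean of at least 5 CPM required, 2 genes of the E2F, RB and G1/S list were called in place of 5 and *Pcna* was at 0.9961. *E2f7* (3.25 CPM in neonates and 1.46 CPM in adults) and *E2f8* (3.79 and 1.14 CPM) fell under that filter and were then not tested. Over all genes that filter gave 654 called higher and 1169 lower in neonates, in place of 1063 and 1822. With each library left out in turn, the polymerases and primase called ran from 3 to 5, and the licensing genes called from 8 to 9. The cause of the other moves was not tested. All 10 licensing genes passed the adjusted p toward neonates under every alternative run. With the replicate block 9 were called, and over all genes 1071 higher and 1866 lower. Same-numbered libraries did not deviate together (correlation -0.0154). With 2 libraries an age, this value cannot show whether pools of both ages shared litters. The lowest count of a licensing gene was 136, above the floor of 3 counts. The standard errors were still largest (0.17 to 0.18) in *Cdt1*, *Gmnn* and *Mcm10*, the genes with the fewest counts.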
